A study of Mus musculus with 18 samples.

Results

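The genes described here encode Wnt ligands, their receptors, the R-spondins that amplify the signal, and the secreted proteins that block it. They were taken from the count table by symbol: every Wnt, Fzd (Frizzled), Sfrp, Dkk and Rspo gene, Lgr4 to Lgr6, Wif1 and Frzb. Also taken were the co-receptors Lrp5 and Lrp6, the target Axin2 and the nuclear factors Lef1 and Tcf7. The rule found 51 of 22238 symbols: 19 ligands, 12 receptors, 4 R-spondins, 3 R-spondin receptors, 10 secreted inhibitors and 3 nuclear factors or targets. Of these, 41 passed the filter on low counts, among 15494 genes tested. The RNA came from whole uterus of adult CD-1 mice, an outbred stock, whose ovaries had been removed in all groups. PBS groups received phosphate-buffered saline, the vehicle, and DOX groups received doxorubicin, an anthracycline chemotherapeutic that poisons topoisomerase II. Within each arm the animals were given OIL (the hormone vehicle), E2 (estradiol) or P4 (progesterone). This makes 6 groups of 3 libraries: PBS OIL, DOX OIL, PBS E2, DOX E2, PBS P4 and DOX P4. The series asks how doxorubicin alters the uterine response to estrogen.

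Wnt proteins are lipid-bearing secreted factors that bind a Frizzled receptor together with Lrp5 or Lrp6. In the canonical branch this binding stops the breakdown of beta-catenin, which then joins Lef1 or Tcf factors on DNA and switches on targets such as Axin2, a scaffold of the destruction complex that feeds back on the signal. In the uterus, Wnt ligands pattern the reproductive tract before birth, and in the adult they carry signals between luminal epithelium, glands and stroma during the estrous cycle and decidualization.

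The libraries held 18042357 to 39783785 counts, and PBS E2 replicate 1 was the deepest. No dose, time or statement that the samples are separate animals is given, so each p-value reflects only how these samples scatter, which may be technical. All 7 genes that mark uterine identity, among them Hoxa10 and Esr1, were above 0 in every library, with a summed level of 1069 to 1863 CPM, which are counts scaled by the size of each library. Adipocyte markers, 21 genes of fat cells, summed to 8552 CPM in PBS E2 replicate 1 against 875 and 2140 CPM in the other PBS E2 libraries, and to 379.5 to 716.5 CPM in DOX E2, where 6 of 21 (Adipoq, Plin1, Cidec, Retn, Lep and Ucp1) were at 0 in replicate 1 and 3 (Plin1, Cidec and Lep) in replicate 2. In these bulk samples, fewer cells of a type and less RNA per cell cannot be told apart.

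Without hormone, the R-spondin Rspo3 and the decoy Sfrp2 were the most abundant of these transcripts per length. Levels between genes are compared only here, as CPM per kilobase of exon. In PBS OIL, Rspo3 stood at 72.8 ± 7.52 and Sfrp2 at 65.7 ± 10.2 (SD, n = 3 libraries), ahead of Dkk3 at 30.9 ± 1.14 and Rspo1 at 29 ± 3.05. The ranges of Rspo3 (64.2 to 78.2) and Sfrp2 (54 to 73.1) overlapped. Among receptors, Fzd1, Fzd7 and Fzd2 lay together at 29.2 ± 1.91, 28.2 ± 1.99 and 27.4 ± 2.43. The leading ligands were Wnt7a, 13.2 to 19.1 over the 3 libraries, then Wnt6 (10.1 to 14.8), Wnt9a (8.3 to 11.9), Wnt5a (9.03 to 11.2) and Wnt4 (7.68 to 12.1), and the ranges of neighbours in this order overlapped. The order of the ligands differed with each hormone. In PBS E2, Wnt4 led at 44.1 ± 9.63 CPM per kilobase, with Wnt9a next, 16.5 to 38.9 over the 3 libraries. Wnt9a led in DOX E2 at 52.2 ± 6.91, followed by Wnt4 at 38.2 ± 2.17 and Wnt5a at 23.2 ± 4.98. In PBS P4 the first was Wnt5a at 18.9 ± 0.365 and the next Wnt9a at 13.1 ± 2.61.

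The 10 members under the filter were Wnt1, Wnt3, Wnt3a, Wnt8a, Wnt8b, Wnt10b, Rspo2, Rspo4, Dkk1 and Dkk4. Dkk4 had no count in any library, and Wnt1, Wnt3a, Wnt8a, Rspo4 and Wnt8b had 2, 2, 1, 6 and 17 counts over all 18 libraries. Dkk1 had 34, Rspo2 39, Wnt3 47 and Wnt10b 79 counts. Wnt3, a canonical ligand, was uneven: 35 of its 47 counts were in DOX E2 and 9 in PBS E2, and the P4 groups had 0. None of these was tested.

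Some of these genes sit beside each other in the genome. On build GRCm38 (GENCODE M21), Wnt6 at chr1:74771892-74785322 and Wnt10a at chr1:74791516-74804179 lie on the same strand with 6193 bases between them. Wnt9a (chr11:59306928-59333552) is 16175 bases from Wnt3a, and Wnt9b (chr11:103727364-103749821) is 24328 bases from Wnt3. Wnt4 is at chr4:137277489-137299726, Wnt5a at chr14:28504750-28527448, Wnt11 at chr7:98835112-98855195, Rspo3 at chr10:29452416-29535867, Sfrp2 at chr3:83766321-83774316 and Wif1 at chr10:121033960-121100650, all protein-coding.

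Promoter windows are shown for 5 members that the results below turn on: Wnt9a, which rose with E2, Wnt6 and Sfrp2, which were lower after DOX under E2, and Wnt11 and Wif1, which moved in opposite directions with P4. Each window runs from 250 bases before to 50 bases after the gene start in the RefSeq promoter table of build GRCm38.p6, on the plus strand. Capitals mark either the core bound by TCF and LEF factors, CTTTG or its reverse complement CAAAG, or the estrogen receptor half-site, GGTCA or TGACC. The windows are Wnt9a at chr11:59306680-59306979, Wnt6 at chr1:74771642-74771941, Sfrp2 at chr3:83766071-83766370, Wnt11 at chr7:98834862-98835161 and Wif1 at chr10:121033754-121034053.
Wnt9a: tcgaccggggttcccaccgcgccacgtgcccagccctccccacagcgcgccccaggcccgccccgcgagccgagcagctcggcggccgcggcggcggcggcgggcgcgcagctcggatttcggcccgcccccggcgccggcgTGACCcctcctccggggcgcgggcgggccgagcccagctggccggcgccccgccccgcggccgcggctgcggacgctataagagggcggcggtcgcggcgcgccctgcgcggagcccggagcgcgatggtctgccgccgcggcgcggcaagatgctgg
Wnt6: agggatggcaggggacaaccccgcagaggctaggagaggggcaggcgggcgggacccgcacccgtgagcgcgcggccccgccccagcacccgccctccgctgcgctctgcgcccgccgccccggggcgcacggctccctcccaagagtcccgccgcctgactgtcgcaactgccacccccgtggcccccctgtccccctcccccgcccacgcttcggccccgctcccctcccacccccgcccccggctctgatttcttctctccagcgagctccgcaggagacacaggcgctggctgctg
Sfrp2: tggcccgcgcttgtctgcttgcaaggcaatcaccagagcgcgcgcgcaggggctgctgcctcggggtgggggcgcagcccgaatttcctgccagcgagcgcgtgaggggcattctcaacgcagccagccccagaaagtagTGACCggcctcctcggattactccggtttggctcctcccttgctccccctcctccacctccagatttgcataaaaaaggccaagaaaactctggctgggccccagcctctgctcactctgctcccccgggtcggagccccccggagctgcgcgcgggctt
Wnt11: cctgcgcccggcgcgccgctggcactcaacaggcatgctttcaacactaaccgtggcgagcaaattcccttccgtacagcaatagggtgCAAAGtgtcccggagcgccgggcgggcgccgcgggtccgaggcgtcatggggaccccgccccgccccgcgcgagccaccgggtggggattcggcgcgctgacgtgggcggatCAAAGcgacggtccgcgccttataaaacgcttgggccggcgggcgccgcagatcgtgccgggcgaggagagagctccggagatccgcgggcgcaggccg
Wif1: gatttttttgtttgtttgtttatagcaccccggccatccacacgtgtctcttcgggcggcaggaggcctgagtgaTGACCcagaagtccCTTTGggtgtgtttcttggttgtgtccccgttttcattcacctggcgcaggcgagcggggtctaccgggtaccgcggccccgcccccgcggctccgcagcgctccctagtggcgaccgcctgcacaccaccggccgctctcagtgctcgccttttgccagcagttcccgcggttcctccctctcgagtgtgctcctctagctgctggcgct
Counted from the first transcribed base as 0, a half-site stood at -108 in Wnt9a and at -110 in Sfrp2. Wnt11 held the TCF core at -161 and -49, in its first window of the table. Wif1 held a half-site at -175 and the TCF core at -161, and the Wnt6 window held neither motif. On both strands, the TCF core was found in 19 of the 41 member promoters in the table (46.3%, from 34 genes) against 53.9% of all 32851 promoters of this length. The half-site was also in 19 (46.3%) against 40.5% of all. A match is a match of letters and not a measured binding site, and both motifs can share a base.

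E2 raised 7 and lowered 16 of the 41 tested members in PBS uteri. The rises were the ligands Wnt4, Wnt9a and Wnt7b, the R-spondin receptor Lgr6, Fzd9, Lrp5 and the target Axin2. Of these, Fzd9 passed the count filter only through the PBS E2 libraries, so its call here is not independent of the filter. The falls took in both tested R-spondins and 3 secreted inhibitors. Of all genes tested, 29.6% rose and 31.9% fell in this comparison (edgeR's quasi-likelihood test, Benjamini-Hochberg adjustment over all genes, threshold 0.05), against 7 of 41 and 16 of 41 here. Without PBS E2 replicate 1, the library highest in adipocyte markers, 19 members passed in place of 23, and 8550 of all genes in place of 9519. The members' median log2 fold change was -0.40, and that of all genes -0.09. After DOX, E2 raised 10 and lowered 20 of the 41, with 35.1% of all genes higher and 37.5% lower, and the medians were -0.40 and -0.08. The PBS and DOX arms share no library in these comparisons. All 7 members that rose in PBS also rose in DOX, which is 70% of the 10. Of the falls, 13 were in both, 81.2% of the PBS list and 65% of the DOX list. The same overlap over all genes was not counted, so these shares have no background. Frzb, Wnt5a and Wnt9b passed as higher in the DOX arm and not in the PBS arm, and whether the arms differed is tested below by the interaction.

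Markers of other cell types moved with E2 as well. In the DOX arm, stromal markers (9 genes) summed to 5834 to 6918 CPM under OIL and 2201 to 3254 CPM under E2, and 7 of the 9 lay lower under E2 without overlap. Luminal epithelial markers (10 genes, among them the member Wnt7a) went from 690.5 to 926.3 CPM up to 983.2 to 1384 CPM, with 6 of 10 higher. Oviduct and ciliated cell markers (7 genes) were at 41.57 to 64.07 CPM under OIL and 10.57 to 12.73 CPM under E2, with 5 lower, and adipocyte markers were at 751.7 to 1527 and 379.5 to 716.5 CPM, with 7 of 21 lower. In PBS, oviduct and ciliated cell markers were at 52.75 to 69.31 CPM under OIL and 21.49 to 38.43 CPM under E2, with 3 lower, and smooth muscle markers (10 genes) at 8429 to 10170 and 11860 to 12380 CPM, with 6 higher. The summed glandular markers (7 genes) lay lower under E2 in PBS (179.8 to 255.9 CPM under OIL, 149.2 to 173.5 CPM under E2) and higher in DOX (187.8 to 216 and 279.9 to 322.6 CPM), while in each arm 3 of the 7 were higher (Prss28, Prss29 and Lif) and Sox17 was lower. Prss28, Prss29 and Spink3 were at 0 in some OIL libraries. The sums of the other cell type lists overlapped between OIL and E2 in each arm, though some of their genes stood apart. In PBS, 4 of 9 stromal genes (Pdgfra, Col3a1, Hoxa10 and Hand2) and the adipocyte gene Cidea were lower under E2, and 2 of 10 luminal genes were higher. Of 7 endothelial genes, 3 (Tek, Vwf and Cldn5) were lower in both arms, and Kdr was higher in DOX. In DOX, 3 of 10 smooth muscle genes and the leukocyte gene Ncr1 were lower, and Des was higher. The part of these markers in the members' changes was not tested. The share of all genes whose libraries did not overlap between groups was not counted, so the marker counts have no background to be read against.

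DOX under E2 raised 7 and lowered 16 of the 41 members. Higher were the ligands Wnt5a, Wnt9a and Wnt16, the receptors Lgr6 and Fzd6, the decoy Frzb and the factor Lef1. Lower were 6 ligands, both R-spondins, Fzd4, Fzd7, Lrp6, 4 secreted inhibitors and Axin2. The background was 20.4% of genes higher and 20.6% lower, and the medians were -0.31 for the members and 0.02 for all genes. Without PBS E2 replicate 1 the count of called members was 26 in place of 23, and that of all genes 6822 in place of 6358.

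Between PBS E2 and DOX E2, each cell type list held genes that stood apart and genes that overlapped. Stromal markers summed to 4006 to 5619 CPM in PBS E2 and 2201 to 3254 CPM in DOX E2. Of the 9 genes, Dcn (2431 to 3806 and 973.3 to 1846 CPM), Lum and Col3a1 lay lower in DOX E2, Pdgfra lay higher (125.9 to 176.9 and 201.4 to 228 CPM) and the other 5 overlapped, as did the mean log2 CPM of the list (7.48 to 7.97 and 7.26 to 7.51). Glandular markers (Spink3 at 0 in 2 PBS E2 and 3 DOX E2 libraries) summed to 149.2 to 173.5 CPM in PBS E2 and 279.9 to 322.6 CPM in DOX E2. Lif alone went from 16.04 to 46.47 CPM up to 121.9 to 151.2 CPM, Foxa2 was also higher, and the other 5 glandular genes and the mean log2 CPM (1.71 to 2.94 and 2.9 to 3.21) overlapped. Luminal epithelial sums overlapped, at 690.4 to 1044 and 983.2 to 1384 CPM, with Krt8 and Krt18 higher in DOX E2. Oviduct and ciliated cell markers (Sntn or Tekt1 at 0 in some libraries) summed to 21.49 to 38.43 and 10.57 to 12.73 CPM, with Ccdc39 and Wdr96 lower and the other 5 overlapping. Smooth muscle markers summed to 11860 to 12380 CPM in PBS E2 and 9577 to 11500 CPM in DOX E2, with 4 of 10 lower and Des higher. Of the 21 adipocyte markers, 16 were lower in DOX E2. Leukocyte sums (10 genes, Csf1r lower in DOX E2) overlapped, at 118.8 to 139.6 and 78.71 to 149.7 CPM. The part of these differences in those of the members was not tested. Here too the share of all genes that did not overlap was not counted, so the marker counts have no background.

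**Figure D1:**
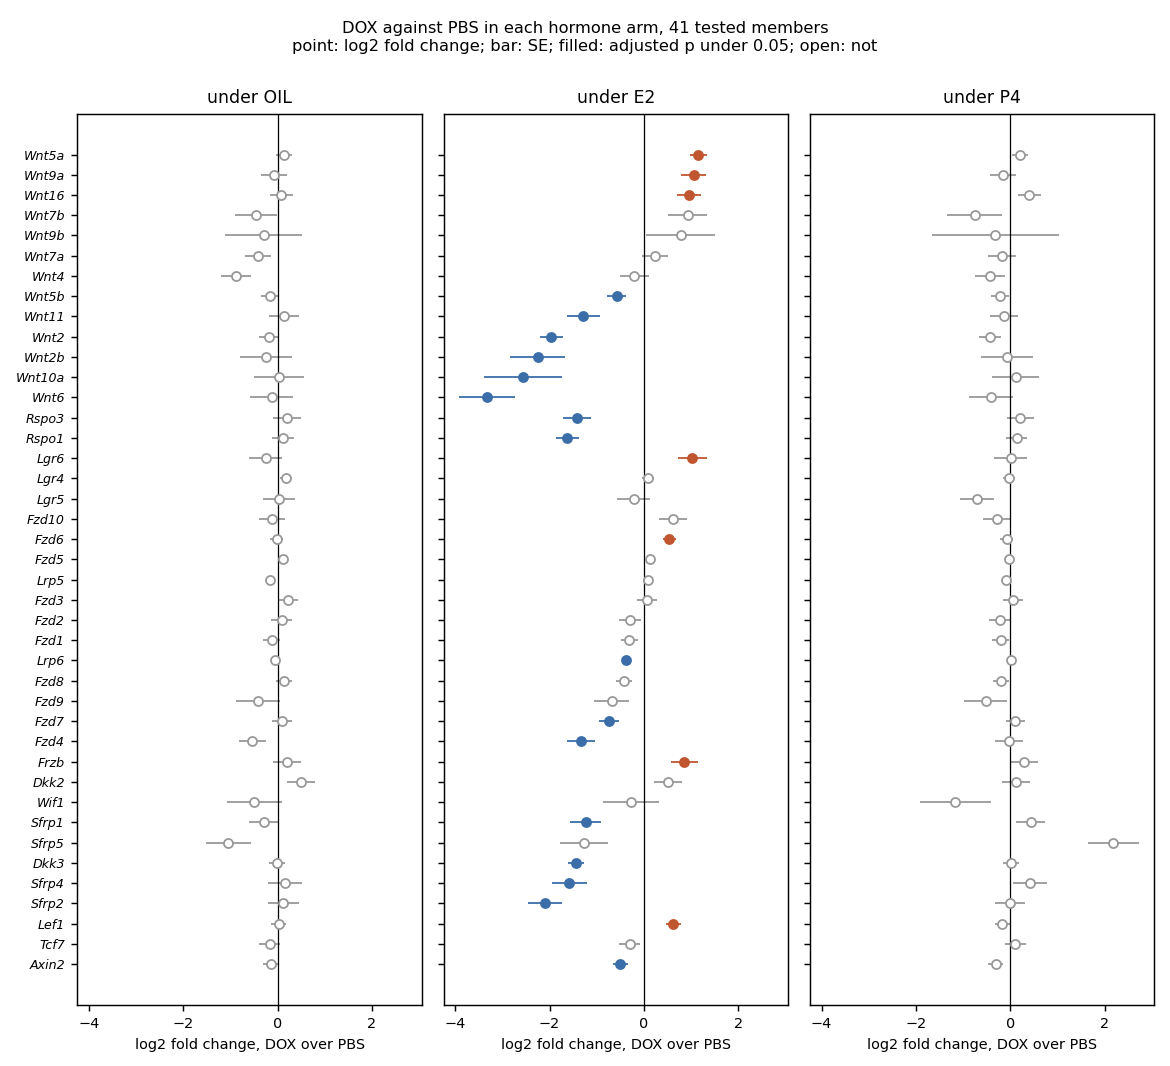
Log2 fold change of DOX over PBS (x axis) for the 41 tested members (y axis, grouped by role) under OIL, E2 and P4, with bars showing the SE; filled points had an adjusted p under 0.05. Filled points appear only in the E2 panel, 7 to the right and 16 to the left of 0.

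Outside E2, DOX gave no call among the members. Under OIL 0 of 41 passed, with 0.00645% of all genes higher and 0.00645% lower, which is 1 gene each way. At an unadjusted p under 0.05 there were 3 members (Wnt4 at -0.88 ± 0.32, Sfrp5 at -1.05 ± 0.48 and Lrp5 at -0.17 ± 0.06 as log2 fold changes with SE, 3 libraries in each group) and 1253 of all genes. Under P4 0 of 41 passed, with 0% of all genes in either direction, and at an unadjusted p under 0.05 there were 1 member, Sfrp5 at 2.18 ± 0.54, and 822 genes. DESeq2 and limma voom also called 0 members in both comparisons. The P4 by DOX interaction called 0 members, with 0% of genes higher and 0.00645% lower, and at an unadjusted p under 0.05 again only Sfrp5 of the members (3.23 ± 0.72) and 525 of all genes. Sfrp5, a decoy, was at 0.225, 0.129 and 0.189 CPM in PBS P4 and 0.769, 1.13 and 0.615 CPM in DOX P4. All of these levels are low, and the DOX P4 libraries lay above the PBS P4 libraries.

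The E2 by DOX interaction asks whether the response to E2 differed between the arms, and it passed for 11 members. It was positive for Wnt5a and Wnt9a and negative for Wnt2, Wnt6, Wnt11, Rspo1, Rspo3, Sfrp2, Sfrp4, Dkk3 and Fzd7. Of all genes, 10.1% had a positive and 12.8% a negative call, and the medians were -0.23 for the members and 0.01 for all genes. For Wnt2, Wnt5a, Wnt6, Rspo1, Rspo3, Sfrp2 and Dkk3 the call held whichever of the 12 libraries was left out. The count was 18 without PBS E2 replicate 1, where that of all genes was 4898 in place of 3553. It was 7 without PBS E2 replicate 3 or DOX E2 replicate 1, where all genes gave 2427 and 2437.

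**Figure D2:**
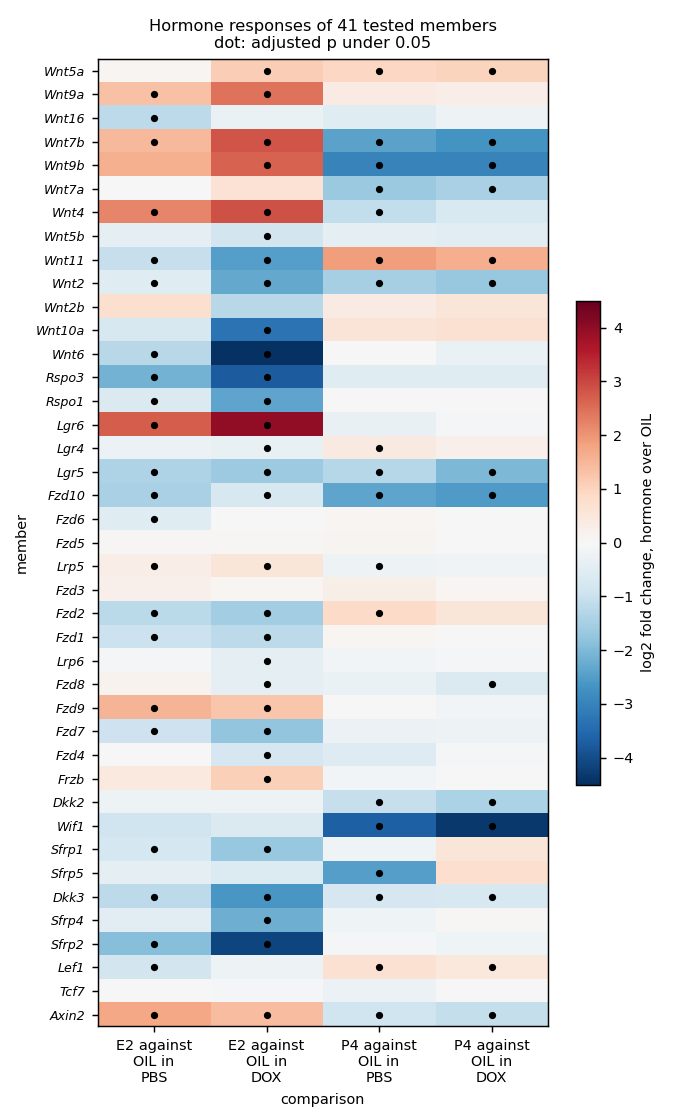
Colour map of the log2 fold change of hormone over OIL for the 41 tested members (rows, grouped by role) in 4 comparisons (columns), with a dot where the adjusted p was under 0.05. In the 2 E2 columns Lgr6 and Wnt4 are red and Sfrp2 and Rspo3 blue; in the 2 P4 columns Wnt11 is red and Wif1 the deepest blue.

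P4 raised 5 and lowered 13 of the 41 members in PBS uteri, with 16.2% of all genes higher and 15.6% lower. Higher were Wnt11, Wnt5a, Fzd2, Lef1 and Lgr4. Lower were the ligands Wnt2, Wnt4, Wnt7a, Wnt7b and Wnt9b, the receptors Fzd10 and Lrp5, Lgr5, the inhibitors Wif1, Sfrp5, Dkk2 and Dkk3, and Axin2. The medians were -0.23 for the members and -0.01 for all genes. After DOX, P4 raised 3 and lowered 11, with 14.7% of genes higher and 15.1% lower, and the medians were -0.06 and -0.02. All 3 rises of the DOX arm were among the 5 of the PBS arm (60%), and 10 falls were in both, 76.9% of the PBS list and 90.9% of the DOX list. Here too the overlap over all genes was not counted. Within each arm the P4 and E2 comparisons share the OIL libraries. Smooth muscle markers summed to 16120 to 21210 CPM in PBS P4 and 8429 to 10170 CPM in PBS OIL (9 of 10 higher), and to 17500 to 30840 CPM in DOX P4 and 7643 to 17010 CPM in DOX OIL (5 of 10 higher). Stromal markers summed to 6654 to 8012 CPM in PBS P4 and 4044 to 7227 CPM in PBS OIL. These sums overlapped, but 4 of 9 genes were higher (Hoxa10, Hoxa11, Lum and Hand2) and 0 lower. The mean log2 CPM of the list did not overlap (8.98 to 9.16 in PBS P4 and 7.92 to 8.59 in PBS OIL). In DOX the stromal sums were 7488 to 9511 and 5834 to 6918 CPM, with 7 of 9 higher and Dcn lower. Adipocyte markers were at 614.5 to 947.7 CPM in PBS P4 and 1340 to 4421 CPM in PBS OIL, with 15 of 21 lower and 2 higher. In DOX the adipocyte sums overlapped (514.2 to 941.7 and 751.7 to 1527 CPM), with 3 of 21 lower and Thrsp higher. Endothelial sums (7 genes) were lower under P4 in both arms, at 591.2 to 689.9 against 719.6 to 896.9 CPM in PBS and 583.9 to 685.7 against 750.8 to 896.6 CPM in DOX. Only 2 of the 7 genes were lower without overlap in each arm, Vwf and Cldn5 in PBS and Pecam1 and Cldn5 in DOX. The part of these marker lists in the members' differences was not tested, and the marker counts again have no background from all genes.

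Among the ligands, Wnt4 rose most with E2 in PBS uteri. Wnt4, which the stroma needs for decidualization, was at 50.7, 37.3 and 32.2 CPM in PBS OIL and 232, 160.3 and 163 CPM in PBS E2, a log2 fold change of 2.21 ± 0.32 (edgeR adjusted p = 2.32e-05). After DOX it was at 30.5, 18.4 and 16.3 CPM under OIL and 150.0, 163 and 168 CPM under E2, a change of 2.88 ± 0.33. The E2 libraries stood well above the OIL libraries in both arms, and the PBS E2 and DOX E2 ranges overlapped (DOX over PBS -0.21 ± 0.30, adjusted p = 0.613). With P4 in PBS, Wnt4 fell by 1.12 ± 0.32 to 9.63, 18.7 and 26.9 CPM. That call ended, meaning that the adjusted p no longer passed, without PBS OIL replicate 1 (-0.92) or PBS P4 replicate 1 (-0.81). In the DOX arm Wnt4 did not pass with P4 (-0.68 ± 0.32).

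Wnt9a, a ligand known from joint formation, rose with E2 in both arms and was higher after DOX under E2. It was at 33.8, 27.6 and 39.5 CPM in PBS OIL, 129, 55.1 and 66.4 CPM in PBS E2 and 192, 148 and 181 CPM in DOX E2. The 3 groups did not overlap, and PBS E2 replicate 1 was the PBS E2 library closest to DOX E2. The E2 change was 1.32 ± 0.27 in PBS (0.86 without PBS E2 replicate 1) and 2.46 ± 0.28 in DOX, and DOX over PBS under E2 was 1.05 ± 0.27 (edgeR adjusted p = 0.00614). The interaction of 1.14 ± 0.38 (adjusted p = 0.0437) ended in 8 of 12 fits without 1 library, with values of 0.91 to 1.12 in those 8, the lowest without PBS E2 replicate 2. It held without PBS OIL replicate 2, DOX OIL replicate 1, PBS E2 replicate 1 or DOX E2 replicate 2.

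Wnt7b in both arms and Wnt9b in the DOX arm also rose with E2, and both ligands fell with P4. Wnt7b, an epithelial ligand in several organs, rose by 1.46 ± 0.43 in PBS and 2.85 ± 0.45 in DOX. Its levels under E2 were 17.1, 10.4 and 10.1 CPM in PBS and 22.7, 31.4 and 17.8 CPM in DOX, adjacent ranges whose difference did not pass (0.93 ± 0.42, adjusted p = 0.0885). With P4 it fell by 2.39 ± 0.50 in PBS (-3.68 without PBS P4 replicate 3) and by 2.68 ± 0.53 in DOX. Wnt9b, needed for growth of the Müllerian duct, was a low transcript of 0.1398 to 2.23 CPM in PBS OIL. It rose with E2 in the DOX arm (2.66 ± 0.80) and was at 1.59 ± 0.78 in PBS without passing. Its falls with P4, -3.00 ± 1.04 in PBS and -3.02 ± 1.07 in DOX, each ended in 4 of 6 fits without 1 library. The P4 call in PBS ended without PBS OIL replicate 1 (-2.00) or 2 (-3.08) or PBS P4 replicate 2 (-2.40) or 3 (-2.81). The call in DOX ended without DOX OIL replicate 1 (-2.20) or 3 (-3.24) or DOX P4 replicate 2 (-2.59) or 3 (-2.40), and the value was -5.26 without DOX P4 replicate 1.

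Wnt5a, which signals largely without beta-catenin, rose with E2 in the DOX arm and with P4 in both. It was at 70.7, 72.02 and 87.9 CPM in PBS OIL and 78.7, 81.4 and 84.9 CPM in PBS E2, groups that overlapped (0.09 ± 0.17, edgeR adjusted p = 0.678). In DOX E2 it was at 225, 170.4 and 149 CPM against 93.2, 67.98 and 91.5 CPM in DOX OIL, a rise of 1.11 ± 0.17. Every DOX E2 library was above every PBS E2, PBS OIL and DOX OIL library. Under E2, DOX over PBS was 1.15 ± 0.17 (adjusted p = 0.00015) and the interaction 1.02 ± 0.24 (adjusted p = 0.009). The PBS P4 libraries were at 151, 147 and 146 CPM and the DOX P4 libraries at 174, 127 and 209 CPM, rises of 0.94 ± 0.17 and 1.01 ± 0.17 over OIL. Its close relative Wnt5b was at 8.32, 14.4 and 12.5 CPM in PBS E2 and 7.798, 7.22 and 8.42 CPM in DOX E2. These ranges overlapped through PBS E2 replicate 1, and the fall of 0.58 ± 0.20 ended without PBS E2 replicate 2 (-0.41) or 3 (-0.53) or DOX E2 replicate 1 (-0.60) or 2 (-0.53). Wnt5b also fell with E2 in the DOX arm, by 0.82 ± 0.20.

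Wnt11, another ligand of the branch without beta-catenin, moved in opposite directions with the hormones. It was at 5.62, 8.31 and 14.1 CPM in PBS OIL, 26.9, 35.1 and 41.9 CPM in PBS P4 and 29.6, 30.6 and 34.1 CPM in DOX P4. The P4 libraries lay above every OIL library, and the rises were 1.89 ± 0.31 in PBS (edgeR adjusted p = 0.00054) and 1.62 ± 0.31 in DOX. With E2 it stood at 2.87, 6.34 and 4.505 CPM in PBS and 1.81, 1.65 and 2.05 CPM in DOX, where DOX OIL was at 8.95, 8.12 and 13.7 CPM. PBS E2 overlapped PBS OIL, while DOX E2 lay below every other group. The fall with E2 was 1.05 ± 0.32 in PBS, a call that ended without PBS OIL replicate 3 (-0.63) or PBS E2 replicate 1 (-0.78), and 2.47 ± 0.35 in DOX. DOX over PBS under E2 was -1.28 ± 0.35, which ended without PBS E2 replicate 2 (-0.97). The interaction, -1.41 ± 0.47 (adjusted p = 0.0415), ended in 8 of 12 fits without 1 library, all but those without PBS OIL replicate 3, DOX OIL replicate 1 or 2 or PBS E2 replicate 1, with values of -1.51 to -1.10 in those 8.

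Wnt6 and Wnt10a, the neighbours on chromosome 1, were at their lowest in DOX E2. Wnt6, a ligand tied to growth of the uterine stroma, was at 32.5, 22.2 and 27.3 CPM in PBS OIL, 2.34, 15.1 and 17.6 CPM in PBS E2 and 0.878, 1.805 and 0.7804 CPM in DOX E2. The DOX E2 libraries were below all others, and PBS E2 replicate 1 lay far under the other 2 PBS E2 libraries. DOX over PBS under E2 was -3.33 ± 0.59 (edgeR adjusted p = 0.000472), the fall with E2 in DOX 4.45 ± 0.59, and the interaction -3.19 ± 0.75 (adjusted p = 0.00769). The fall with E2 in PBS, 1.25 ± 0.48, ended without PBS OIL replicate 1 (-1.11) or 3 (-1.25) and was -0.74 without PBS E2 replicate 1. Wnt10a, a ligand of skin and teeth, was at 0.139, 0.542 and 0.314 CPM in PBS E2 and 0.0516, 0.103 and 0 CPM in DOX E2. The DOX E2 group held 3 counts in all against 21 in PBS E2 and 35 in DOX OIL, so the ratio of DOX E2 to PBS E2 was 0.166 (95% counting interval 0.0318 to 0.557) and to DOX OIL 0.0882 (0.0174 to 0.28). Wnt10a passed as lower in both comparisons. The call against PBS E2 ended without PBS E2 replicate 2 (-2.02) or DOX E2 replicate 1 (-2.62) or 3 (-1.93).

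Wnt2 and Wnt2b were lower after DOX under E2 as well. Wnt2, a stromal ligand, was at 3.43, 2.65 and 2.52 CPM in PBS OIL, 1.95, 1.84 and 2.15 CPM in PBS E2 and 0.465, 0.464 and 0.575 CPM in DOX E2. The 3 groups were apart, with DOX E2 lowest. Under E2, DOX over PBS was -1.96 ± 0.23 (edgeR adjusted p = 2.42e-05) and the interaction -1.77 ± 0.31 (adjusted p = 0.00153). The smaller fall with E2 in PBS, 0.53 ± 0.21, ended without PBS OIL replicate 1 (-0.38), PBS E2 replicate 1 (-0.52) or PBS E2 replicate 2 (-0.48). That call also ended with DESeq2, with limma voom, without the filter and in a fit of only the groups compared. P4 also lowered Wnt2, to 0.9897, 0.992 and 1.09 CPM in PBS P4 and 0.724, 0.902 and 0.651 CPM in DOX P4, by 1.48 ± 0.22 and 1.72 ± 0.22. Its relative Wnt2b was at 17.9, 9.59 and 16.9 CPM in PBS E2 and 1.96, 0.980 and 6.202 CPM in DOX E2. These did not overlap, and the difference was -2.25 ± 0.58, while its changes with E2 did not pass (0.74 ± 0.55 in PBS and -1.26 ± 0.58 in DOX).

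Wnt16 and Wnt7a completed the tested ligands. Wnt16, a ligand studied in bone, was at 26.5, 22.3 and 32.8 CPM in PBS OIL, 11.6, 10.2 and 14.2 CPM in PBS E2 and 23.96, 24.1 and 21.6 CPM in DOX E2. E2 lowered it in PBS by 1.18 ± 0.25, with no overlap of groups. In DOX it did not pass (-0.30 ± 0.24), DOX over PBS under E2 was 0.95 ± 0.25, and the interaction missed the threshold (0.88 ± 0.34, edgeR adjusted p = 0.0759). Wnt7a, the ligand of the luminal epithelium that patterns the uterus, did not pass with E2 (-0.02 ± 0.28 in PBS, 0.64 ± 0.28 in DOX). P4 lowered it from 60.5, 43.5 and 41.8 to 11.8, 13.7 and 19.9 CPM in PBS and from 55.7, 29.2 and 23.8 to 10.9, 12.5 and 16.4 CPM in DOX. The P4 libraries were below the OIL libraries in both arms, by 1.69 ± 0.29 and 1.44 ± 0.29. Luminal epithelial markers, a list that holds Wnt7a, summed to 612.1 to 993.3 CPM in PBS OIL and 600.4 to 982.6 CPM in PBS P4.

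**Figure D3:**
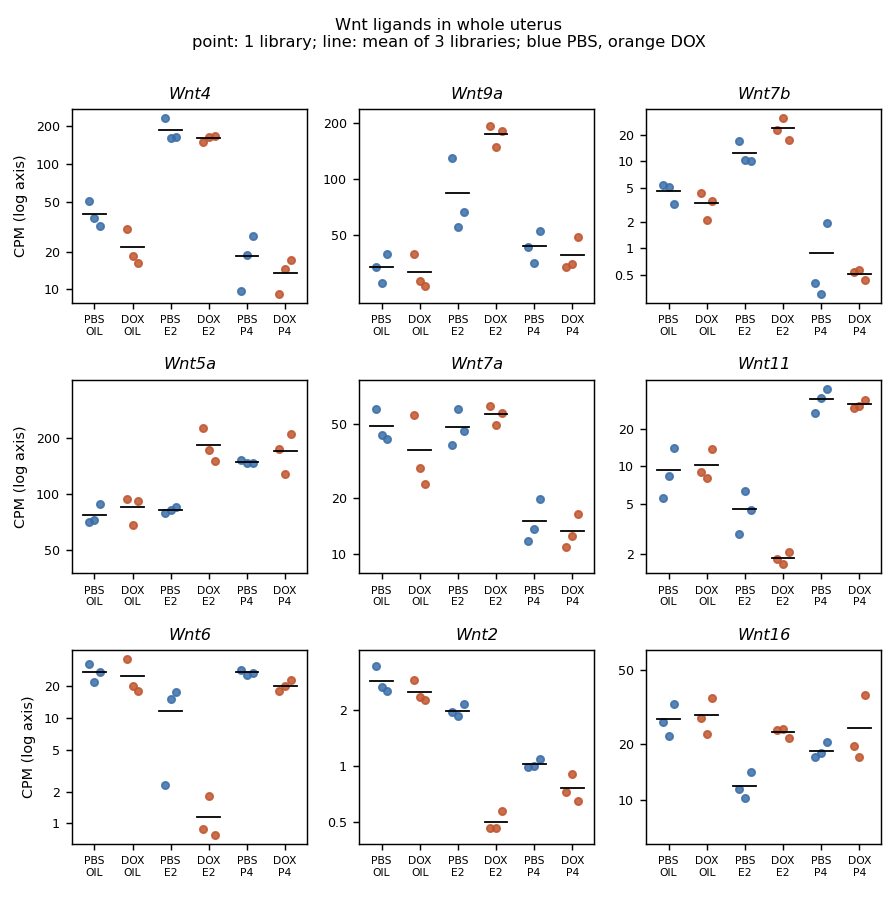
CPM of 9 ligands in each library (points, log axis) by group (x axis), with the group mean as a line; blue is PBS and orange DOX. Wnt9a is highest in DOX E2, Wnt5a lies higher in DOX E2 and the P4 groups than in the other 3, Wnt11 is highest in the P4 groups, and Wnt6 and Wnt2 are lowest in DOX E2.

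R-spondins bind an Lgr receptor and remove the ligases that degrade Frizzled proteins, which raises sensitivity to Wnt. Both tested R-spondins were lowest in DOX E2. Rspo3 was at 198, 235 and 242 CPM in PBS OIL, 27.1, 79.4 and 49.4 CPM in PBS E2 and 19.3, 20.6 and 18.1 CPM in DOX E2. The groups stepped down without overlap. The fall with E2 was 2.12 ± 0.30 in PBS (edgeR adjusted p = 1.97e-05) and 3.73 ± 0.33 in DOX from 185, 232 and 355 CPM, DOX over PBS under E2 was -1.42 ± 0.31, and the interaction was -1.61 ± 0.42 (adjusted p = 0.0135). Rspo1 was at 53.0, 52.7 and 63.1 CPM in PBS OIL, 28.4, 41.6 and 38.1 CPM in PBS E2 and 8.88, 7.79 and 17.9 CPM in DOX E2. Its order was that of Rspo3, also without overlap. Its difference between DOX and PBS under E2 was -1.63 ± 0.24 and the interaction -1.74 ± 0.33 (adjusted p = 0.00237). E2 lowered Rspo1 by 2.39 ± 0.24 in DOX and by 0.65 ± 0.23 in PBS, the latter a call that ended without PBS OIL replicate 3 (-0.55) or PBS E2 replicate 1 (-0.49). With P4 neither passed in either arm (Rspo3 at -0.56 ± 0.29 and -0.54 ± 0.29, Rspo1 at 0.00 ± 0.23 and 0.02 ± 0.23, PBS then DOX).

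The 3 R-spondin receptors differed from each other. Lgr6 was at 4.903, 9.01 and 10.8 CPM in PBS OIL, 81.5, 28.6 and 51.5 CPM in PBS E2 and 110.3, 104 and 115 CPM in DOX E2. It had the largest rise with E2 of the 41 members in both arms, 2.72 ± 0.34 in PBS (edgeR adjusted p = 5.04e-06) and 3.996 ± 0.36 in DOX, and DOX E2 lay above PBS E2. The difference of 1.02 ± 0.31 between them ended without PBS E2 replicate 2 (0.72) or 3 (0.99), and the interaction missed the threshold (1.28 ± 0.46, adjusted p = 0.0582). Lgr5, a stem cell marker in gut and skin that is also made by uterine epithelium, fell with both hormones. It was at 48.5, 28.0 and 46.5 CPM in PBS OIL, 7.41, 24.1 and 15.9 CPM in PBS E2 and 13.1, 22.7 and 14.99 CPM in PBS P4, falls of 1.39 ± 0.35 and 1.27 ± 0.35. In the DOX arm it was at 46.1, 29.7 and 49.8 CPM under OIL, 14.4, 12.7 and 13.1 CPM under E2 and 13.5, 10.3 and 7.41 CPM under P4, falls of 1.64 ± 0.36 and 2.01 ± 0.36. All hormone libraries lay below all OIL libraries in both arms, and the P4 call in PBS ended without PBS P4 replicate 1 (-1.12) or 3 (-1.19). Lgr4, the widely made receptor of the 3, passed in 2 comparisons. It rose with P4 in PBS by 0.41 ± 0.13, a call that ended without PBS OIL replicate 1 (0.32) or 2 (0.40) or PBS P4 replicate 2 (0.35) or 3 (0.43). It fell with E2 in DOX by 0.35 ± 0.13, which ended without DOX OIL replicate 3 (-0.23) or DOX E2 replicate 2 (-0.25) or 3 (-0.30).

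Among the 10 Frizzled receptors, Fzd1, Fzd2, Fzd7 and Fzd10 fell with E2 in both arms, and the co-receptor Lrp5 rose. Fzd2 fell by 1.20 ± 0.23 in PBS and 1.58 ± 0.23 in DOX and Fzd1 by 0.98 ± 0.18 and 1.17 ± 0.18. Fzd7 was at 119, 137 and 128 CPM in PBS OIL, 37.98, 88.5 and 73.2 CPM in PBS E2 and 42.8, 39.4 and 36.7 CPM in DOX E2. The fall with E2 was 0.94 ± 0.20 and 1.78 ± 0.21, and PBS E2 replicate 1 lay inside the DOX E2 range. DOX over PBS under E2, -0.74 ± 0.21, ended without PBS E2 replicate 2 (-0.49). The Fzd7 interaction of -0.83 ± 0.29 (edgeR adjusted p = 0.0494) ended in 10 of 12 fits without 1 library, all but those without DOX OIL replicate 1 or PBS E2 replicate 1, with values of -0.91 to -0.57 in those 10. Lrp5 rose with E2 by 0.29 ± 0.06 in PBS and 0.54 ± 0.06 in DOX and fell with P4 in PBS by 0.23 ± 0.06, a call that ended without PBS P4 replicate 2 (-0.21). The other co-receptor, Lrp6, was at 129, 155 and 147 CPM in PBS E2 and 111, 108 and 112 CPM in DOX E2. The groups did not overlap, with a difference of -0.38 ± 0.10, and Lrp6 fell with E2 in DOX by 0.40 ± 0.10.

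Fzd10 was the receptor that fell most with P4. It was at 87.8, 38.5 and 49.4 CPM in PBS OIL, 10.7, 12.03 and 11.02 CPM in PBS P4 and 15.5, 28.2 and 21.2 CPM in PBS E2, falls of 2.38 ± 0.30 (edgeR adjusted p = 8.55e-05) and 1.44 ± 0.29. In the DOX arm it was at 60.6, 41.3 and 59.5 CPM under OIL, 8.37, 10.4 and 8.89 CPM under P4 and 42.1, 34.97 and 22.1 CPM under E2. The P4 groups were lowest in both arms, and DOX E2 overlapped DOX OIL. The P4 fall in DOX was 2.54 ± 0.31. The E2 fall in DOX, 0.70 ± 0.29, ended without DOX OIL replicate 1 (-0.61) or 3 (-0.63) or DOX E2 replicate 2 (-0.75) or 3 (-0.48). Fzd2 went the other way with P4, from 106, 90.3 and 105 to 188, 183 and 174 CPM in PBS, a rise of 0.85 ± 0.22, and did not pass in DOX (0.54 ± 0.22).

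Fzd4 and Fzd6 differed between the DOX and PBS arms under E2, in opposite directions. Fzd4, known from retinal vessels, was at 36.8, 19.6 and 30.1 CPM in PBS E2 and 8.31, 11.2 and 14.9 CPM in DOX E2. The groups did not overlap, and DOX over PBS was -1.33 ± 0.29 (edgeR adjusted p = 0.00241). Its fall with E2 in DOX, 0.77 ± 0.29, ended without DOX OIL replicate 2 (-0.58) or DOX E2 replicate 1 (-0.60) or 2 (-0.75). Endothelial markers (7 genes, none at 0) summed to 537.6 to 867.9 CPM in PBS E2 and 623.6 to 818.2 CPM in DOX E2. Of these, Kdr lay higher and Cldn5 lower in DOX E2, and the other 5 overlapped. Adipocyte markers summed to 875 to 8552 CPM in PBS E2 and 379.5 to 716.5 CPM in DOX E2. The part of either list in the Fzd4 difference was not tested. Fzd6, a receptor of planar cell polarity, was at 61.5, 82.2 and 67.3 CPM in PBS E2 and 121, 99.96 and 84.9 CPM in DOX E2. DOX E2 lay above PBS E2 in every library. E2 lowered Fzd6 in PBS by 0.54 ± 0.14, it did not pass in DOX (0.02 ± 0.14), and DOX over PBS under E2 was 0.54 ± 0.14, which ended without DOX E2 replicate 1 (0.38). Its interaction missed the threshold (0.56 ± 0.20, adjusted p = 0.0529). Fzd9 was low, 0.139 to 0.312 CPM in PBS OIL and 0.542 to 0.786 CPM in PBS E2. Fzd9 passed the count filter only through the PBS E2 libraries, so its rise in PBS was drawn from the group that admitted it. It rose with E2 by 1.52 ± 0.40 in PBS and 1.25 ± 0.44 in DOX, the latter a call that ended without DOX OIL replicate 2 (0.96) or DOX E2 replicate 1 (1.15). Fzd8 fell in DOX with P4 by 0.63 ± 0.17, which ended without DOX OIL replicate 3 (-0.49) or DOX P4 replicate 3 (-0.54). Its fall with E2 in DOX, 0.39 ± 0.17, ended in 5 of 6 fits without 1 library, all but that without DOX OIL replicate 1, with values of -0.43 to -0.25 in those 5, the smallest without DOX OIL replicate 3. Fzd3 and Fzd5 passed in none of the 9 comparisons.

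**Figure D4:**
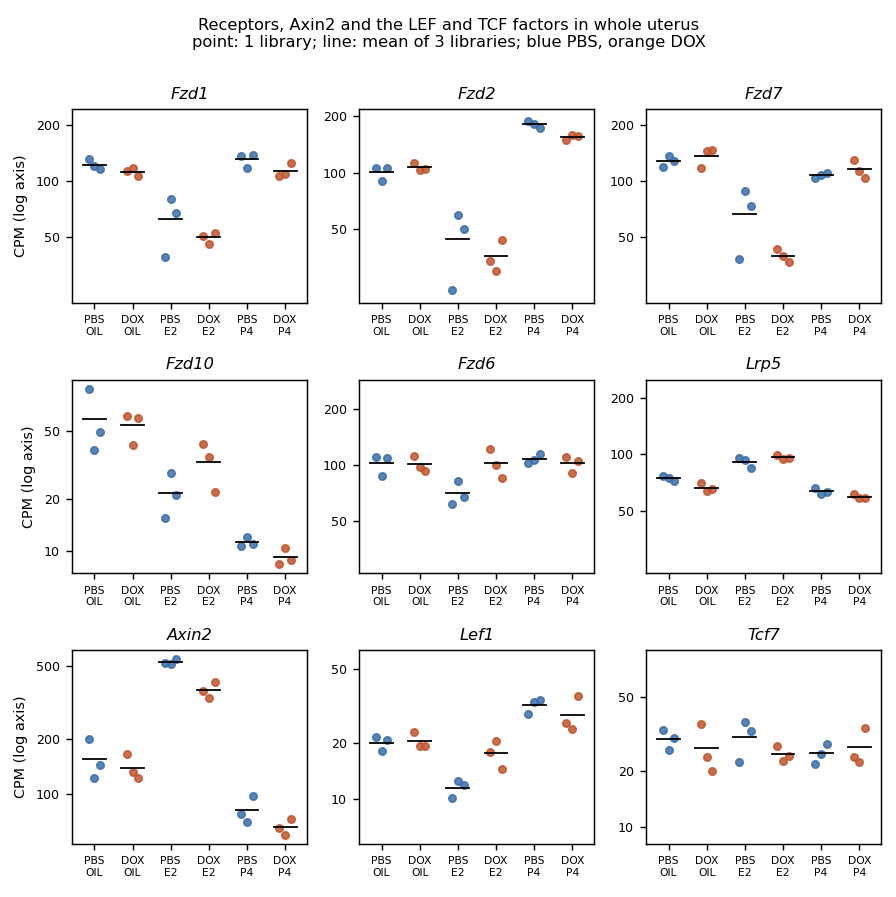
CPM of 6 receptors, Axin2, Lef1 and Tcf7 in each library (points, log axis) by group (x axis), with the group mean as a line; blue is PBS and orange DOX. Axin2 is highest in the E2 groups and lowest in the P4 groups, and Fzd2 is highest in the P4 groups.

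The Sfrp proteins carry a Frizzled-like domain and capture Wnt outside the cell. Of the 4 tested genes with an Sfrp symbol, 3 were lower after DOX under E2, where 20.6% of all genes were lower. Frzb, also called Sfrp3, is not among the 4 and was higher. Sfrp2 was at 157, 116 and 151 CPM in PBS OIL, 15.3, 53.7 and 44.6 CPM in PBS E2 and 10.5, 8.41 and 7.43 CPM in DOX E2. The groups did not overlap, and the lowest PBS E2 library was replicate 1. E2 lowered it by 1.91 ± 0.33 in PBS (edgeR adjusted p = 0.000137) and 4.13 ± 0.38 in DOX from 168, 151 and 142 CPM, DOX over PBS under E2 was -2.10 ± 0.36, and the interaction was -2.22 ± 0.48 (adjusted p = 0.00481). Sfrp4 was at 50.1, 90.1 and 74.4 CPM in PBS E2 and 21.02, 20.5 and 29.9 CPM in DOX E2, against 86.3, 169.8 and 72.6 CPM in DOX OIL. DOX E2 was the lowest of the 3 without overlap. E2 lowered it in DOX by 2.20 ± 0.38 and did not pass in PBS (-0.46 ± 0.36), and DOX over PBS under E2 was -1.58 ± 0.37. The Sfrp4 interaction of -1.74 ± 0.51 (adjusted p = 0.0243) ended without PBS OIL replicate 1, DOX OIL replicate 2, PBS E2 replicate 2 or 3, or DOX E2 replicate 1 or 2, with values of -1.71 to -1.28 in those fits.

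Sfrp1 was at 24.8, 77.1 and 47.5 CPM in PBS OIL, 26.9, 30.8 and 29.6 CPM in PBS E2 and 9.81, 11.5 and 15.6 CPM in DOX E2. The OIL libraries spread widely and reached below PBS E2, while DOX E2 lay below both. DOX over PBS under E2 was -1.24 ± 0.33 (edgeR adjusted p = 0.00786), and E2 lowered Sfrp1 in DOX by 1.71 ± 0.33. The fall with E2 in PBS, 0.77 ± 0.32 (adjusted p = 0.0455), ended in 5 of 6 fits without 1 library, all but that without PBS OIL replicate 1, and was -0.31 without PBS OIL replicate 2. Frzb, the decoy also called Sfrp3, went the other way. It was at 39.4, 30.9 and 40.5 CPM in PBS E2 and 59.7, 57.7 and 83.2 CPM in DOX E2. DOX E2 lay above PBS E2, by 0.85 ± 0.29, a call that ended without PBS E2 replicate 2 (0.74) or 3 (0.92) or DOX E2 replicate 3 (0.66). E2 raised Frzb in DOX by 1.08 ± 0.29. Sfrp5 fell with P4 in PBS by 2.46 ± 0.54, and in DOX it was at 0.77 ± 0.48 without passing.

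Wif1, which binds Wnt directly, had the largest fall with P4 of the 41 members in both arms. It was at 39.3, 16.9 and 16.03 CPM in PBS OIL and 2.92, 0.561 and 2.13 CPM in PBS P4, and at 20.9, 7.34 and 23.01 and 1.402, 0.489 and 0.651 CPM in the DOX groups. The P4 libraries were below the OIL libraries in both arms, by 3.69 ± 0.67 in PBS (edgeR adjusted p = 0.00106) and 4.36 ± 0.72 in DOX. With E2, Wif1 did not pass (-0.88 ± 0.58 in PBS, -0.66 ± 0.59 in DOX). Dkk2, which occupies Lrp5 and Lrp6, fell with P4 by 1.03 ± 0.30 in PBS and 1.42 ± 0.30 in DOX. The first call ended without PBS OIL replicate 2 (-0.85) or PBS P4 replicate 2 (-0.90) or 3 (-1.03), and the second was -0.94 without DOX OIL replicate 3. Dkk3, a divergent relative of the other Dkk proteins, fell with both hormones in both arms. It was at 106, 106 and 99.3 CPM in PBS OIL, 34.05, 53.5 and 48.8 CPM in PBS E2 and 15.4, 18.9 and 15.98 CPM in DOX E2. These groups stepped down with no overlap. The falls with E2 were 1.19 ± 0.17 in PBS and 2.61 ± 0.18 in DOX (adjusted p = 3.51e-09), DOX over PBS under E2 was -1.44 ± 0.17, the interaction -1.42 ± 0.24 (adjusted p = 0.00114), and the falls with P4 0.74 ± 0.17 and 0.72 ± 0.17.

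**Figure D5:**
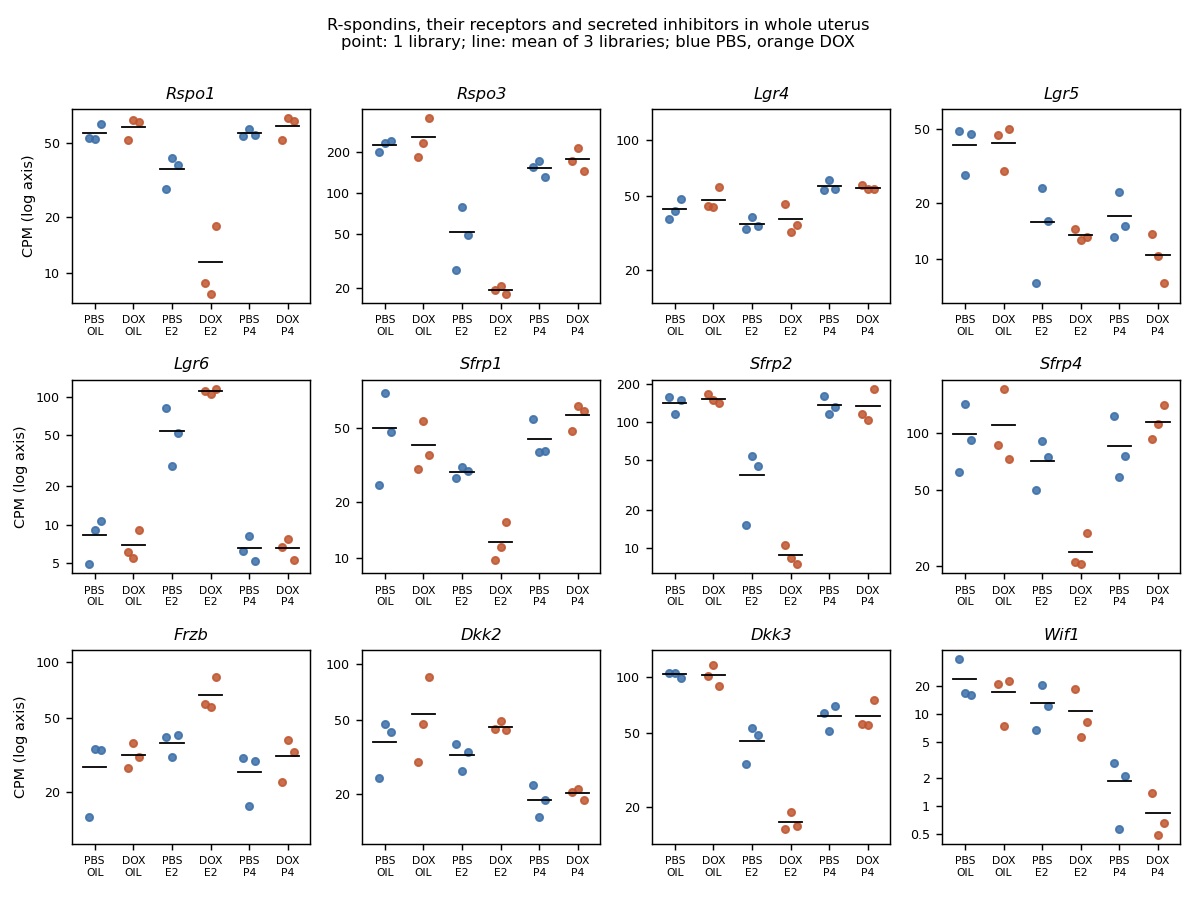
CPM of 2 R-spondins, 3 R-spondin receptors and 7 secreted inhibitors in each library (points, log axis) by group (x axis), with the group mean as a line; blue is PBS and orange DOX. Rspo1, Rspo3, Sfrp2, Sfrp4 and Dkk3 are lowest in DOX E2, Lgr6 and Frzb are highest there, and Wif1 is lowest in the P4 groups.

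Axin2, which is both a brake on beta-catenin and a widely used read-out of its activity, was raised by E2 and lowered by P4. It was at 198, 122 and 145 CPM in PBS OIL, 513, 508 and 542 CPM in PBS E2 and 77.8, 71.1 and 98.4 CPM in PBS P4. The 3 groups were apart, with changes of 1.75 ± 0.17 (edgeR adjusted p = 3.1e-07) and -0.91 ± 0.16. After DOX it was at 164, 132 and 122 CPM under OIL, 362, 334 and 405 CPM under E2 and 65.6, 60.3 and 73.5 CPM under P4, changes of 1.40 ± 0.17 and -1.07 ± 0.17. The order of the hormones was that of the PBS arm, and DOX E2 lay below PBS E2. That difference, -0.51 ± 0.16 (adjusted p = 0.0211), ended without PBS E2 replicate 3 (-0.48) or DOX E2 replicate 1 (-0.52) or 2 (-0.44), and the interaction did not pass (-0.35 ± 0.23, adjusted p = 0.279). Lef1, a DNA-binding partner of beta-catenin, was at 21.6, 18.1 and 20.7 CPM in PBS OIL, 10.2, 12.5 and 11.9 CPM in PBS E2 and 17.8, 20.6 and 14.5 CPM in DOX E2. PBS E2 was the lowest of the 3 without overlap. E2 lowered Lef1 in PBS by 0.81 ± 0.16 and did not pass in DOX (-0.21 ± 0.16), DOX over PBS under E2 was 0.62 ± 0.16, and the interaction missed the threshold (0.60 ± 0.23, adjusted p = 0.0679). P4 raised Lef1 by 0.67 ± 0.16 in PBS and 0.47 ± 0.16 in DOX, the latter a call that ended without DOX OIL replicate 2 (0.43) or 3 (0.43) or DOX P4 replicate 3 (0.28). Tcf7 passed in none of the 9 comparisons. Of 14 other genes listed as targets in many tissues, E2 raised 3 and lowered 3 in PBS (29.6% and 31.9% of all genes). In DOX, E2 raised 6 and lowered 3 of the 14 (35.1% and 37.5% of all genes). DOX under E2 raised 1 and lowered 3 (20.4% and 20.6% of all genes). P4 raised 0 and lowered 3 in PBS and raised 2 and lowered 3 in DOX. All genes gave 16.2% and 15.6% with P4 in PBS and 14.7% and 15.1% in DOX.

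Other genes of the pathway, a list of 67 of which 66 were found and tested, were counted in the same fits. In PBS, E2 raised 14 and lowered 24 of the 66 (29.6% and 31.9% of all genes), led by Ror2 (a receptor for Wnt5a, 2.34 ± 0.15), Apcdd1 (a membrane inhibitor, -2.23 ± 0.15), Axin1 (0.81 ± 0.06) and Dvl3 (a Dishevelled relay protein, 0.81 ± 0.07). In DOX, E2 raised 18 and lowered 32 (35.1% and 37.5% of all genes), led by Apcdd1 (-2.90 ± 0.16), the corepressor Tle3 (1.81 ± 0.11), Ror2 (2.57 ± 0.16) and Tcf7l2 (a beta-catenin partner, -1.72 ± 0.12). DOX under E2 raised 6 and lowered 24 (20.4% and 20.6% of all genes), led by the corepressor Tle2 (-1.99 ± 0.23), the Dkk receptor Kremen1 (-0.68 ± 0.09), the coactivator Bcl9l (-1.06 ± 0.15) and Tcf7l2 (-0.83 ± 0.12). The interaction was positive for 3 and negative for 15 (10.1% and 12.8% of all genes), led by Tle2 (-2.04 ± 0.32), Wls (which carries Wnt to the cell surface, -1.06 ± 0.17), the Dishevelled antagonist Nkd1 (-1.90 ± 0.35) and Kremen1 (-0.70 ± 0.13). P4 raised 6 and lowered 8 in PBS (16.2% and 15.6% of all genes), led by Igfbp4 (an IGF binding protein, 1.01 ± 0.14), the kinase Csnk1e (-0.49 ± 0.08), Dvl3 (0.37 ± 0.07) and the corepressor Tle1 (0.43 ± 0.08). In DOX it raised 8 and lowered 10 (14.7% and 15.1% of all genes), led by Igfbp4 (0.96 ± 0.14), Csnk1e (-0.43 ± 0.08), Dvl3 (0.36 ± 0.07) and Wls (-0.51 ± 0.12). None of the 66 passed in either DOX comparison outside E2 (0 of 66), nor in the interaction with P4 (0 of 66).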

How the data were processed

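Total RNA of whole uterus homogenate was sequenced from TruSeq total RNA libraries, per the labels' protocols. The authors deposited 1 table of raw counts per gene symbol for 22238 symbols and 18 libraries. The submitters' processing notes name Trimmomatic 0.36, StringTie 1.3.4d, SAMtools 1.6, HISAT2 2.1.0 and build GRCm38; the annotation, strand setting and handling of reads with several matches are not stated in the sources at hand, so counts of overlapping genes may be mixed.

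Genes were filtered with filterByExpr and scaled with TMM factors (trimmed mean of M values), and a quasi-likelihood model of 6 group means was fitted with edgeR 4.0.16 (R 4.3.3, 12 residual degrees of freedom). Two-sided p-values were adjusted by Benjamini-Hochberg over 15494 genes in each of 9 comparisons, with a threshold of 0.05. The SE was taken as the log2 fold change over the root of its F statistic. CPM uses TMM library sizes. Marker lists were summed and not tested. No library was a copy of another of its own group, and pairs from different groups were not compared. The fit was tested on simulated data. Alternatives were DESeq2 size factors, DESeq2 1.42.0, limma 3.58.1 voom, no filter, a stricter filter (1 CPM in 3 libraries), only the groups compared, a replicate block and leaving out each library. The members and lists were chosen with earlier results of these data known. Called members were named with values, and those called for DOX or the interactions, or of the 6 smallest p-values in a hormone comparison, were given in every library of the groups compared; of the other pathway genes up to 4 were named per comparison.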

Additional observations from a re-analysis of the deposited data

Results flagged for a closer look

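In 11 of the 41 tested members the response to E2 differed between the DOX and PBS arms by a test of the difference itself (edgeR's E2 by DOX interaction, 3 libraries in each of 4 groups, Benjamini-Hochberg over all genes tested). Of all genes tested, 10.1% had a positive and 12.8% a negative call. The E2 response was more negative after DOX for Wnt6 (-3.19 ± 0.75), Sfrp2 (-2.22 ± 0.48), Wnt2 (-1.77 ± 0.31), Rspo1 (-1.74 ± 0.33), Sfrp4 (-1.74 ± 0.51), Rspo3 (-1.61 ± 0.42), Dkk3 (-1.42 ± 0.24), Wnt11 (-1.41 ± 0.47) and Fzd7 (-0.83 ± 0.29), on the log2 scale with SE. It was more positive for Wnt9a (1.14 ± 0.38) and Wnt5a (1.02 ± 0.24). The calls of Fzd7, Wnt9a, Wnt11 and Sfrp4 ended in 10, 8, 8 and 6 of 12 fits without 1 library. For Wnt5a the response was 0.09 in PBS, which did not pass, and 1.11 in DOX. In all 11 the estimated response had the same sign in both arms. No group has 4 or more libraries, so no library was tested as an outlier.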

How the results depend on the processing

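The count of members called in the E2 by DOX interaction was 11, and it was 18 with limma voom and 7 to 18 when 1 library was left out (18 without PBS E2 replicate 1, 7 without PBS E2 replicate 3 or DOX E2 replicate 1). Over all genes that count was 3553, and it was 5331 with limma voom and 4898, 2427 and 2437 without those libraries in that order. The counts of the other 8 comparisons stayed within 1.5 times of their value under every alternative run. For DOX under E2 the count was 17 to 26 when 1 library was left out and 32 with limma voom. Over all genes it was 6358 in the main fit, 4684 to 6822 with 1 library left out and 8619 with limma voom. Leaving out 1 library gave 19 to 24 for E2 in PBS, 26 to 31 for E2 in DOX, 14 to 18 for P4 in PBS, 12 to 14 for P4 in DOX and 0 for DOX outside E2 and the P4 interaction. Over all genes these fits gave 8550 to 9462 for E2 in PBS and 10715 to 10901 for E2 in DOX. They gave 3146 to 4460 for P4 in PBS and 3057 to 3896 for P4 in DOX. For DOX outside E2 and the P4 interaction they gave 0 to 2.

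Of 1604 recomputed values of called members, 0 changed direction and 139 no longer passed, 106 of them with 1 library left out and 17 in fits of only the groups compared. Those 17 were Fzd6, Fzd7, Lgr6 and Wnt5b for DOX under E2 and Sfrp1, Wnt2, Wnt6 and Wnt11 for E2 in PBS. They also took in Fzd8 and Lgr4 for E2 in DOX and Fzd7, Wnt9a and Wnt11 in the E2 interaction. The rest were Lrp5 and Wnt4 for P4 in PBS and Lef1 and Wnt9b for P4 in DOX. For DOX under OIL, same-numbered libraries correlated at 0.279, 0.365 and 0.085 in their deviations from the group means, and each correlated best with its own number, a hint from the data and not the design. In the other 6 comparisons of 2 groups at least 1 pair correlated below 0. In none of the 7 did every pair exceed 0.1, so the numbers were not treated as pairing. With the replicate number as a block the counts were 23 for DOX under E2, 23 and 30 for E2 in PBS and DOX, 19 and 15 for P4, 12 for the E2 interaction and 0 for the other 3. Over all genes the block gave 6381, 9528, 11247, 4931, 4588, 3613 and 0 in the same order. The replicate block ended the calls of Sfrp1 with E2 in PBS and of Fzd7 in the interaction. DESeq2 ended those of Wnt2 with E2 in PBS and of Fzd8 and Fzd9 with E2 in DOX. Limma voom ended Wnt2 and Wnt6 with E2 in PBS, Wnt11 in the E2 interaction and Wnt9b with P4 in PBS. Leaving out the filter ended Sfrp1 and Wnt2 with E2 in PBS, Fzd7 and Wnt9a in the interaction and Wnt9b with P4 in DOX. DESeq2 size factors ended Sfrp1 with E2 in PBS and Fzd8 with E2 in DOX. Depth limits Wnt10a, Wnt9b, Fzd9, Sfrp5 and the 10 untested members, whose counts were low; intervals cover counting error only.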
